A study of Mus musculus with 18 samples.

Results

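The 10 genes described here encode factors that write, read, remove or act on DNA methylation and heterochromatin: the DNA methyltransferases Dnmt1, Dnmt3a and Dnmt3b, the reader of hemimethylated DNA Uhrf1, the dioxygenases Tet1, Tet2 and Tet3, the H3K9 methyltransferase Setdb1, its recruiting scaffold Trim28 and the chromatin remodeler Atrx. Their rows were taken by symbol from a table of read counts over 24421 gene symbols, and all 10 were present in it. These genes, and the lists of related genes below, were chosen with earlier results of these data known. RNA had been sequenced from 6 groups of cultured mouse cells. 4T1 is a mouse mammary carcinoma line of BALB/cfC3H origin. 4T1R1 and 4T1R2 are populations, not clones, selected from it separately with 17-DMAG, an inhibitor of the chaperone HSP90. Each of the 3 was grown untreated or with 1.5 µM 17-DMAG, and each group had 3 libraries. The sample records give a treatment of 48 h and the series design gives 2 h. The selection is given as 3 rounds of 1.5 µM for 48 h in the sample records and as cycles of 1 µg/ml for 24 h in the series design, so neither duration can be fixed from these sources. The study asked how resistance to the drug relates to retroelement activity. Apart from Tet1, Tet2 and Tet3, these genes are among the known repressors of retroelements.

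DNA methylation at CpG sites is copied after replication by DNMT1, which UHRF1 brings to hemimethylated DNA, and is laid down on unmethylated DNA by DNMT3A and DNMT3B. The TET enzymes oxidize 5-methylcytosine and so start its removal. TRIM28 is drawn to endogenous retroviruses and other repeats by KRAB zinc finger proteins and brings SETDB1, which trimethylates H3K9, while ATRX works with DAXX to place histone H3.3 in silent chromatin and at telomeres. None of these activities was measured here, since every value below is an RNA level.

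The total of counts per library ran from 23354461 to 55094630, and the rRNA precursor Rn45s took 9.54% to 15.6% of it. In 4T1 with 17-DMAG, the counts of replicates 1 and 2 gave a chi-square per gene of 1.10, against 2.04 to 2.22 in 17 other replicate pairs. Most low counts were even, which is what counting both mates of a fragment gives and which doubles the sampling noise, so the difference of this pair was taken to be under that noise. Their mean was counted as 1 sample, which leaves n = 2 in that group. The 4T1R1 libraries carry identifiers from a number range apart from those of 4T1 and 4T1R2, so a difference between 4T1R1 and either of the others cannot be told apart from that range. The mammary epithelial identity held by marker: Cdh1, Krt8 and Krt18 stood between 10154 and 25357 normalized counts in every library, whereas Cd3e and Kdr stood at no more than 2.34 and Col1a1 and Col1a2 at no more than 19.7. Pdgfra, a fibroblast marker, was present at 375 to 1027. The summed level of the 7 epithelial markers was 76880 to 77792 in untreated 4T1, 51106 to 53537 in untreated 4T1R1 and 59210 to 60422 in untreated 4T1R2, and its part in the differences below was not tested.

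A normalized count is a count scaled by the TMM effective library size to the mean depth, and a call is an adjusted p under 0.05 in edgeR's quasi-likelihood test with Benjamini-Hochberg adjustment over the 13507 genes tested. The records call the replicates biological without saying that they were separate cultures, so the p-values measure the spread between these libraries, which may be technical. In bulk RNA, fewer cells expressing a gene and less of its RNA per cell cannot be told apart. All 10 genes passed the filter on low counts. Tet1 did so on untreated 4T1, where its counts were 10, 10 and 20 and where it is highest, so its differences from untreated 4T1 are not independent of the filter. The other 9 had at least 136 counts in every library, and counts of genes are also given for them alone.

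The promoter sequence of Uhrf1 is shown because Uhrf1 gave the largest response to 17-DMAG among these 9 genes and its promoter carries a motif of cell cycle control. RefSeq gave 15 promoters for the 10 genes, each from 250 bases before to 50 bases after a transcription start (build GRCm38.p6). The E2F consensus forms TTTCGCGC, TTTGGCGC and TTTCCCGC were searched on both strands and no matches overlapped in the promoters of the 10 genes. Of 32851 promoters 1.84% held any of the forms and 0.323% held TTTCGCGC. Only Uhrf1 and Dnmt1 held one among the 10 genes, counted per gene over all its promoters. The promoter at the first Uhrf1 start (chr17:56303087-56303386) held none. The second of the Uhrf1 starts lies inside the gene on the plus strand, and the 250 bases before it (chr17:56304063-56304312) hold no annotated exon, 30 CpG dinucleotides and TTTCGCGC 185 bases before the start. The capitals mark that motif.
Uhrf1, 250 bases before the start: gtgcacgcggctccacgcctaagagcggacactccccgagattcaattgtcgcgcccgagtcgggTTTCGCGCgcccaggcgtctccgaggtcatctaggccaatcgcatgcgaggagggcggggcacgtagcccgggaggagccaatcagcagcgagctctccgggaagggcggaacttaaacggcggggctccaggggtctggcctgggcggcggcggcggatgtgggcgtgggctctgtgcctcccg

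The Dnmt1 promoter with the motif (chr9:20952574-20952873, minus strand) holds GCGCGAAA, the reverse form, 219 bases before its start and TTTGGCGC 33 bases after it, and is not printed because annotated exons cover part of it. Of the 24 genes of a list of G1/S and DNA replication genes that had a RefSeq promoter, 8 held a form of the motif, 3 of them TTTCGCGC. A match of letters is a description of the window and not a binding site. The 15 promoters ranged in CpG count per 300 bases from 2 at a start of Dnmt1 to 57 at Tet2, against a median of 7 and an upper quartile of 20 over all promoters. The upstream starts of Dnmt3a held 46 and 47 and the third start 18. Dnmt3b held 30, Tet1 17, Setdb1 15 and Atrx 11.

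Levels between genes were compared per kb of annotated exon (GENCODE vM21). The length is that of all annotated exons of a gene merged, which can exceed the transcript expressed. Ratios between genes therefore depend on it. Without it, Tet2 had a mean of 837 normalized counts in untreated 4T1, against 1123 for Dnmt3a and 274 for Dnmt3b. In untreated 4T1 they fell into tiers. Trim28 (3227 ± 71.1 normalized counts per kb, SD, n = 3), Uhrf1 (2361 ± 85.1) and Dnmt1 (1808 ± 24.0) stood highest, with no overlap between libraries of neighbours. Setdb1 (470 ± 15.1), Atrx (394 ± 10.4) and Tet3 (206 ± 3.14) came next. Dnmt3a (67.5 ± 0.242), Dnmt3b (53.6 ± 3.72) and Tet2 (49.6 ± 1.82) formed the low tier, in which the libraries of Dnmt3b (50.2 to 57.6) and Tet2 (47.5 to 50.7) overlapped. Tet1 was at 0.874 ± 0.336. Transcripts of the maintenance pair were thus far above those of the de novo enzymes, with a Dnmt1 level per kb 26.8 times that of Dnmt3a and 33.7 times that of Dnmt3b.

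**Figure D1:**
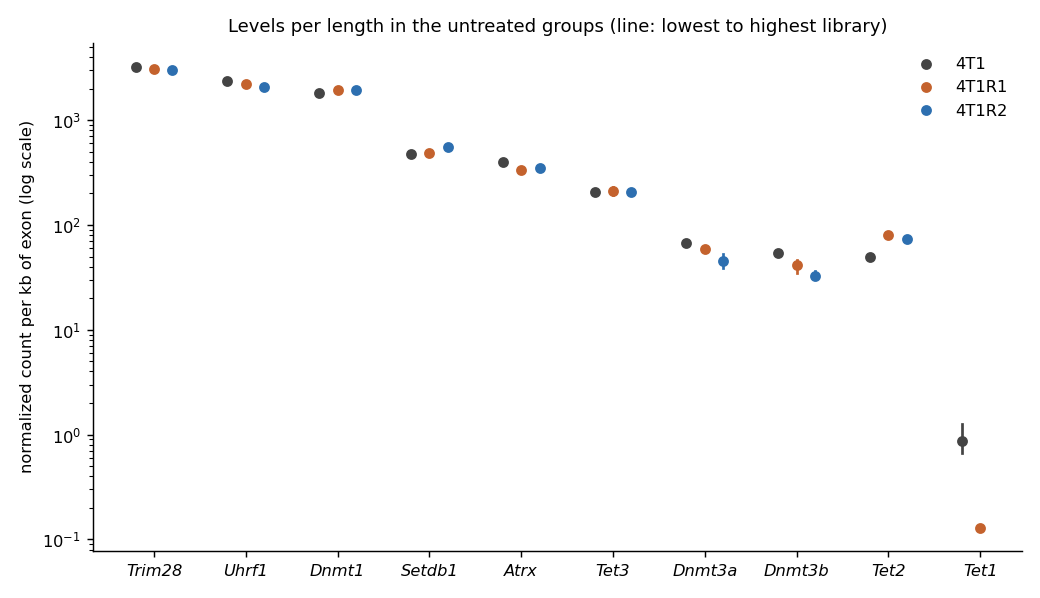
Normalized counts per kb of exon (log scale) of the 10 genes in untreated 4T1, 4T1R1 and 4T1R2, as the mean of 3 libraries with a line from the lowest to the highest library. Tet2 lies at 49.6 per kb in 4T1 and at 80.1 and 73.9 in 4T1R1 and 4T1R2. Its place relative to Dnmt3a and Dnmt3b depends on the exon lengths used. Tet1, at 0 in untreated 4T1R2, has no point there and no line in 4T1R1, where 1 library was at 0.

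The first comparison asked how the untreated selected populations differed from untreated 4T1. Tet2 rose in both, by 61.6% in 4T1R1 and 48.8% in 4T1R2, and Dnmt3a, Dnmt3b, Uhrf1, Trim28 and Atrx fell in both. Tet1, which passed the filter through untreated 4T1, was also called lower in both. Dnmt1 rose by less than 10% in both, and Setdb1 rose in 4T1R2. In 4T1R1, 8 of 10 genes were called (2 higher and 6 lower), where 52.7% of all genes tested were called, 25.2% higher and 27.5% lower. For 4T1R2, 9 of 10 were called (3 higher and 6 lower), against 52.4% of all genes, 25.6% higher and 26.9% lower. Without Tet1 the counts were 7 of 9 and 8 of 9. These shares lie above those of all genes by few genes, and the sizes do not stand out: the median absolute log2 fold change of the 10 genes was 0.16 in 4T1R1 and 0.21 in 4T1R2, against 0.23 for all genes in each. The genes tested include ones of low count, unlike the 9 genes other than Tet1. Of 11684 genes with at least 10 counts in every library, 3107 were called higher and 3549 lower in 4T1R1. In 4T1R2 these were 3265 and 3398. Both comparisons share the untreated 4T1 libraries.

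Among the maintenance factors, Dnmt1 (chr9:20907209-20959888) stood at 13195, 13534 and 13274 normalized counts in untreated 4T1. It stood at 14507, 14394 and 14339 in untreated 4T1R1 and at 14257, 14426 and 14179 in untreated 4T1R2. Both selected populations lay above 4T1 with no overlap, by 8.1% in 4T1R1 (log2 fold change 0.11, SE 0.025, adjusted p = 0.00021) and 7.15% in 4T1R2 (0.10, SE 0.025, adjusted p = 0.000908). Uhrf1 (chr17:56303321-56323486) moved the other way. Its libraries stood at 9637, 10280 and 10249 in untreated 4T1, at 9295, 9458 and 9424 in 4T1R1, and at 8924, 8898 and 8821 in 4T1R2. All selected libraries lay below all of 4T1, by -0.10 (SE 0.028, adjusted p = 0.00335) and -0.18 (SE 0.029, adjusted p = 1.15e-06) on the log2 scale. The ratio of Uhrf1 to Dnmt1 counts within a library, which no scaling between libraries can change, was 0.754 ± 0.0214 in untreated 4T1, 0.652 ± 0.00952 in 4T1R1 and 0.622 ± 0.00461 in 4T1R2 (SD, n = 3), without overlap between the groups.

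The de novo methyltransferases gave larger decreases than Uhrf1. Dnmt3a (chr12:3806007-3914443) was at 1122, 1127 and 1120 normalized counts in untreated 4T1, at 994, 941 and 987 in 4T1R1 and at 647, 737 and 882 in 4T1R2. The 3 groups did not overlap, and the 4T1R2 libraries were the most spread. The log2 fold change was -0.20 (SE 0.071, adjusted p = 0.0141) in 4T1R1 and -0.58 (SE 0.074, adjusted p = 1.25e-08) in 4T1R2. Dnmt3b (chr2:153649450-153687730) was at 294, 256 and 271 in untreated 4T1, at 176, 237 and 218 in 4T1R1 and at 156, 186 and 159 in 4T1R2. It was lower by -0.38 (SE 0.11, adjusted p = 0.00446) in 4T1R1 and by -0.72 (SE 0.12, adjusted p = 2.43e-06) in 4T1R2. The 4T1R1 call was lost without its replicate 1, the lowest library (-0.27, adjusted p = 0.0628). An antisense gene, Dnmt3aos, shares 0.799% of the exon bases of Dnmt3a, and whether strand was used in counting is not given in the sources used here.

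Of the TET genes, Tet2 (chr3:133463679-133545139) was at 853, 856 and 802 normalized counts in untreated 4T1. It was at 1263, 1369 and 1424 in untreated 4T1R1 and at 1162, 1295 and 1284 in untreated 4T1R2. Every selected library exceeded every 4T1 library, and the rise was 61.6% in 4T1R1 (log2 fold change 0.69, SE 0.058, adjusted p = 1.97e-13) and 48.8% in 4T1R2 (0.57, SE 0.059, adjusted p = 5.59e-11). Tet3 (chr6:83362373-83459084), the most abundant TET transcript here, gave 3384, 3488 and 3425 in 4T1, 3250, 3807 and 3474 in 4T1R1 and 3418, 3487 and 3444 in 4T1R2. Its differences of 0.03 (95% interval -0.05 to 0.12) and 0.01 (-0.08 to 0.09) on the log2 scale were not called, and the groups overlapped. The ratio of Tet2 to Tet3 counts within a library went from 0.244 ± 0.00918 in untreated 4T1 to 0.386 ± 0.0251 in 4T1R1 and 0.361 ± 0.0185 in 4T1R2. Set per kb of exon, Tet2 was 0.735 times the level of Dnmt3a in untreated 4T1, 1.37 times in 4T1R1 and 1.63 times in 4T1R2.

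Tet1 (chr10:62804570-62908996) was near the limit of detection. Its counts in untreated 4T1 were 10, 10 and 20, those in untreated 4T1R1 were 4, 2 and 0, and all 3 untreated 4T1R2 libraries held 0. The mean of untreated 4T1 was 4.51 times a floor of 3 normalized counts, and its lowest library stood at 10.4. No minimum fold is drawn from counts this low. The test called Tet1 lower in 4T1R1 (-2.72, SE 0.81, adjusted p = 0.00446) and in 4T1R2 (adjusted p = 0.000128). Tet1 passed the filter through untreated 4T1, so these calls are not independent of the filter. Between 65.6% and 70.8% of counts from 1 to 12 in a library were even, so a count of 2 can stand for 1 sequenced fragment, and these counts carry less information than their size.

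Among the heterochromatin factors, Setdb1 (chr3:95323525-95357202) was at 3115, 3321 and 3226 normalized counts in untreated 4T1, at 3366, 3344 and 3376 in 4T1R1 and at 3693, 3845 and 3838 in 4T1R2. It was higher in 4T1R2 by 17.7% (log2 fold change 0.24, SE 0.036, adjusted p = 4.67e-07). The 4T1R1 libraries also lay above those of 4T1, but the difference of 0.06 (95% interval -0.01 to 0.13) was not called (adjusted p = 0.144), except when counts were scaled by their totals alone (0.09, adjusted p = 0.0484). Trim28 (chr7:12999114-13031035) was at 13126, 13717 and 13409 in 4T1, at 12490, 12897 and 12619 in 4T1R1 and at 12624, 12388 and 12415 in 4T1R2. It was lower by -0.08 (SE 0.027, adjusted p = 0.0102) in 4T1R1 and by -0.10 (SE 0.028, adjusted p = 0.00139) in 4T1R2. The 4T1R1 call was lost when counts were scaled by their totals alone (adjusted p = 0.111), with only the groups compared in the fit (0.0624) and without 4T1 replicate 2 (0.0659). Within a library, the ratio of Setdb1 to Trim28 went from 0.240 ± 0.00247 in untreated 4T1 to 0.265 ± 0.00546 in 4T1R1 and 0.304 ± 0.00994 in 4T1R2. Atrx (chrX:105797615-105929403) was at 8789, 8341 and 8605 in 4T1, at 7264, 7241 and 7505 in 4T1R1 and at 7670, 7557 and 7727 in 4T1R2. No selected library reached a 4T1 library, and Atrx was lower by -0.23 (SE 0.033, adjusted p = 2.92e-07) and -0.16 (SE 0.034, adjusted p = 6.46e-05). Setdb1 shares 1.09% of its exon bases with Cers2 and 3.63% with Gm37500, both on the opposite strand.

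**Figure D2:**
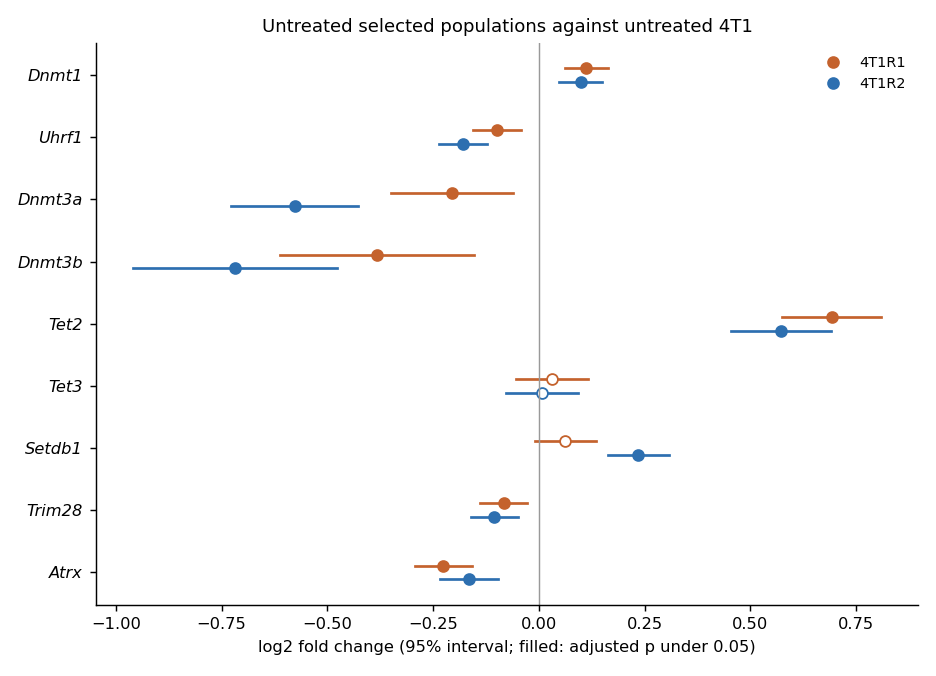
Log2 fold change (horizontal axis) of 9 genes in untreated 4T1R1 and 4T1R2 against untreated 4T1, with 95% intervals; filled points have an adjusted p under 0.05. Tet2 lies at 0.69 and 0.57, Dnmt3a at -0.20 and -0.58 and Dnmt3b at -0.38 and -0.72, while both Tet3 intervals cross 0; Tet1 is left out because untreated 4T1R2 held 0 counts.

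The selected populations were also set against each other, untreated. Dnmt3a, Dnmt3b and Uhrf1 were lower in 4T1R2 than in 4T1R1 and Setdb1 was higher, so that 4 of 10 genes were called (1 higher and 3 lower), where 38.8% of all genes were, 19.7% higher and 19% lower. Dnmt3a differed most clearly (log2 fold change -0.37, SE 0.074, adjusted p = 8.65e-05), with no overlap between libraries. Setdb1 was higher by 0.17 (SE 0.036, adjusted p = 0.000126), again with no overlap. Dnmt3b was lower by -0.34 (SE 0.12, adjusted p = 0.0261), but its libraries overlapped and 5 alternatives ended the call. Uhrf1 was lower by -0.08 (SE 0.029, adjusted p = 0.0224), which was lost without replicate 3 of 4T1R1 (adjusted p = 0.052) or of 4T1R2 (0.0619). For Tet2 the difference was -0.12 (95% interval -0.23 to -0.01, adjusted p = 0.0893).

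The next comparison asked what 17-DMAG did to these genes in each population. In 4T1, Uhrf1, Dnmt3a, Setdb1, Atrx and Trim28 fell, and none of the 10 was called higher. In 4T1R1 Uhrf1 and Trim28 fell and in 4T1R2 Uhrf1 alone was called. The calls were thus 5 of 10 lower in 4T1, where 36.4% of all genes were called, 18.4% higher and 17.9% lower. They were 2 of 10 lower in 4T1R1 (28.2% of all genes, 13.9% higher and 14.3% lower) and 1 of 10 lower in 4T1R2 (10.5%, with 6.18% higher and 4.35% lower). Tet1 was among none of these calls. No gene of the 10 was called higher by edgeR with TMM scaling or by DESeq2, and at an unadjusted p under 0.05 the higher genes were 0 in 4T1, 1 in 4T1R1 and 1 in 4T1R2. Scaled by total counts alone, the split of all genes in 4T1 turned from 2490 higher and 2423 lower to 1193 and 4322, so small decreases there depend on the scaling.

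Uhrf1 went from 9637, 10280 and 10249 normalized counts in untreated 4T1 to 7072 and 6882 with 17-DMAG. It went from 9295, 9458 and 9424 to 8802, 8885 and 8634 in 4T1R1, and from 8924, 8898 and 8821 to 8091, 7928 and 8060 in 4T1R2. Treated and untreated libraries did not overlap in any of the 3 populations, and those of treated 4T1 were the lowest of all. Uhrf1 fell by 30.6% in 4T1 (log2 fold change -0.53, SE 0.032, adjusted p = 4e-17), fell by 6.58% in 4T1R1 (-0.10, SE 0.028, adjusted p = 0.00775) and fell by 9.63% in 4T1R2 (-0.15, SE 0.029, adjusted p = 0.00038). The 4T1R1 call was lost when counts were scaled by their totals alone (-0.06, adjusted p = 0.121). The response was smaller in 4T1R1 than in 4T1 by 0.43 (SE 0.043, adjusted p = 3.73e-10) and smaller in 4T1R2 by 0.38 (SE 0.043, adjusted p = 4.8e-09).

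Dnmt1 did not share that decrease. Its libraries with 17-DMAG stood at 12915 and 13017 normalized counts in 4T1, at 14281, 14365 and 14630 in 4T1R1 and at 14020, 14391 and 14360 in 4T1R2. The response was -0.04 (95% interval -0.10 to 0.02) in 4T1, 0.00 (-0.05 to 0.05) in 4T1R1 and 0.00 (-0.05 to 0.05) in 4T1R2 on the log2 scale, and none was called. Scaled by totals alone, a setting that moved the median of all genes to -0.11 in 4T1, Dnmt1 was called lower there (-0.16, adjusted p = 0.000125). The ratio of Uhrf1 to Dnmt1 within a library went from 0.754 ± 0.0214 to 0.538 ± 0.0134 (n = 2) in 4T1, from 0.652 ± 0.00952 to 0.608 ± 0.0158 in 4T1R1 and from 0.622 ± 0.00461 to 0.563 ± 0.0132 in 4T1R2, with no overlap in any.

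Genes of the G1/S transition and DNA replication, of which 30 were tested, moved with Uhrf1 under 17-DMAG. They encode MCM helicase subunits, PCNA, E2F1, E2F2 and others. Untreated, 8 were higher and 11 lower in 4T1R1 than in 4T1, and 5 and 12 in 4T1R2. Of all genes, 25.2% were higher and 27.5% lower in 4T1R1, and 25.6% and 26.9% in 4T1R2. With 17-DMAG, 25 of the 30 fell in 4T1, 18 in 4T1R1 and 9 in 4T1R2, where 17.9%, 14.3% and 4.35% of all genes fell. None was called higher by edgeR with TMM scaling or DESeq2 (at an unadjusted p under 0.05, 0, 1 and 0 were higher). Scaled by totals alone the counts were 29, 12 and 17, with 1 gene higher in 4T1R1, and leaving out a library gave 22 to 26, 13 to 16 and 2 to 9. The median log2 fold changes were -0.33, -0.14 and -0.10, where the median of all genes was within 0.01 of 0. The response was smaller than that of 4T1 for 16 of the 30 in 4T1R1 and for 18 of the 30 in 4T1R2, where 9.16% and 9.62% of all genes differed in that direction, and scaled by totals alone these were 27 and 22 of the 30. Uhrf1 ranked among the stronger, since 5 of the 30 fell further in 4T1. Expressed as a percentage of the summed level of the 30 genes, Uhrf1 went from 7.76 ± 0.174 to 6.79 ± 0.0267 in 4T1 and from 7.25 ± 0.0277 to 6.93 ± 0.038 in 4T1R2, and in 4T1R1 it was 7.62 ± 0.142 untreated and 7.72 ± 0.0548 treated, with overlap. Dnmt1 on the same scale went from 10.3 ± 0.127 to 12.6 ± 0.264 in 4T1. How much of the change in Uhrf1 belongs to a change in the share of cells in S phase was not tested. E2f2, the gene of this list chosen by its size of change, was at 484, 521 and 508 normalized counts in untreated 4T1 and 203 and 221 with 17-DMAG (log2 fold change -1.24, SE 0.11, adjusted p = 5.3e-12).

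Dnmt3a went from 1122, 1127 and 1120 to 906 and 878 normalized counts with 17-DMAG in 4T1, where it was lower by -0.33 (SE 0.080, adjusted p = 0.000942). Treated libraries stood at 1033, 862 and 1009 in 4T1R1 and 852, 847 and 799 in 4T1R2, overlapping the untreated libraries in both. The response there was -0.01 (95% interval -0.15 to 0.14) and 0.15 (-0.01 to 0.30) and was not called. It differed from that in 4T1 by 0.48 (SE 0.11, adjusted p = 0.00132) in 4T1R2 and by 0.32 (SE 0.11, adjusted p = 0.03) in 4T1R1, and the latter call was lost in 5 of 13 fits that each left out a library or the averaged pair. After treatment the 4T1 level, 892 ± 20.1 (n = 2), lay between those of untreated 4T1R1 (974 ± 28.9, n = 3) and untreated 4T1R2 (755 ± 118). Dnmt3b with 17-DMAG was at 233 and 241 in 4T1, at 171, 188 and 193 in 4T1R1 and at 190, 195 and 183 in 4T1R2. Its responses of -0.21 (95% interval -0.46 to 0.04), -0.20 (-0.44 to 0.05) and 0.18 (-0.06 to 0.43) were not called, and scaled by totals alone that in 4T1 was (-0.33, adjusted p = 0.034).

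Tet2 showed no called response. With 17-DMAG it stood at 859 and 817 normalized counts in 4T1, at 1425, 1418 and 1423 in 4T1R1 and at 1302, 1245 and 1185 in 4T1R2. The responses were 0.00 (95% interval -0.13 to 0.14), 0.07 (-0.04 to 0.18) and 0.00 (-0.11 to 0.11), so changes of the size that separated the selected populations from 4T1 lie outside the intervals. Tet3 with 17-DMAG was at 3379 and 3661 in 4T1, at 3353, 3187 and 3413 in 4T1R1 and at 3154, 3157 and 3257 in 4T1R2. Its response in 4T1R2 was -0.11 (95% interval -0.20 to -0.03, adjusted p = 0.0819) with no overlap between libraries, and it was called with only the groups compared in the fit (adjusted p = 0.0304) and with scaling by totals alone (-0.16, adjusted p = 0.0127). Tet1 counts with 17-DMAG were 10, 8 and 2 in the 3 libraries of 4T1, 4, 4 and 0 in 4T1R1 and 2, 10 and 2 in 4T1R2. Its responses were not called in any population (adjusted p = 0.148, 0.805 and 0.0617).

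Setdb1 went from 3115, 3321 and 3226 to 2514 and 2608 normalized counts in 4T1. Treated libraries were at 3173, 3324 and 3344 in 4T1R1 and at 3706, 3718 and 3732 in 4T1R2. Setdb1 fell by 20.5% in 4T1 (log2 fold change -0.33, SE 0.041, adjusted p = 1.01e-08), whereas the responses of -0.04 (95% interval -0.11 to 0.04) and -0.03 (-0.10 to 0.04) in the selected populations were not called. The difference from 4T1 was called for both, at 0.30 (SE 0.054, adjusted p = 7.53e-05) in 4T1R1 and 0.30 (SE 0.054, adjusted p = 3.8e-05) in 4T1R2. Treated 4T1 thus held the lowest and treated and untreated 4T1R2 the highest Setdb1 levels of the 6 groups. As a percentage of the summed G1/S genes, Setdb1 was 2.49 ± 0.0545 in untreated and 2.49 ± 0.103 in treated 4T1. It was 2.73 ± 0.0248 and 2.89 ± 0.0929 in 4T1R1, and 3.10 ± 0.0836 and 3.21 ± 0.0203 in 4T1R2. The part of the G1/S genes in the Setdb1 response was not tested.

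Trim28 with 17-DMAG was at 12333 and 12142 normalized counts in 4T1, at 11877, 11892 and 12229 in 4T1R1 and at 12612, 12515 and 13267 in 4T1R2. It was lower by -0.13 (SE 0.031, adjusted p = 0.000569) in 4T1 and by -0.08 (SE 0.027, adjusted p = 0.0286) in 4T1R1, and the latter call was lost under 5 alternatives. The value in 4T1R2 was 0.04 (95% interval -0.02 to 0.09), which differed from that in 4T1 by 0.17 (SE 0.041, adjusted p = 0.00246). Atrx with 17-DMAG was at 7765 and 7650 in 4T1, at 7966, 7495 and 7669 in 4T1R1 and at 7238, 7726 and 6851 in 4T1R2. It fell in 4T1 by -0.15 (SE 0.037, adjusted p = 0.000959). The values of 0.07 (adjusted p = 0.11) in 4T1R1 and -0.07 (adjusted p = 0.177) in 4T1R2 were not called, but were when counts were scaled by their totals alone (0.11, adjusted p = 0.0357, and -0.12, adjusted p = 0.0371). The 4T1R1 response differed from that of 4T1 by 0.23 (SE 0.050, adjusted p = 0.000965).

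**Figure D3:**
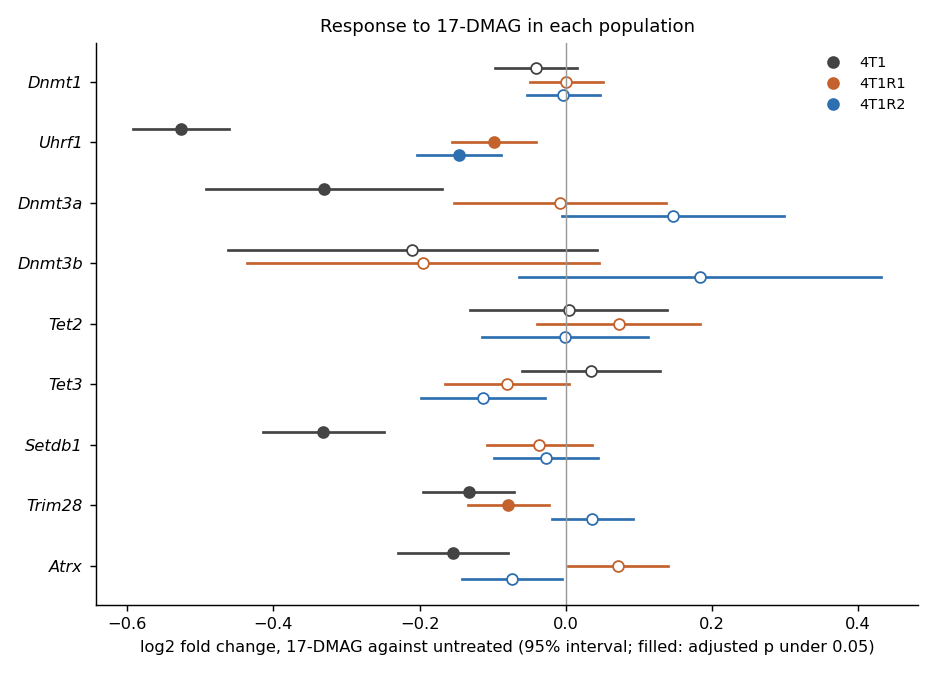
Log2 fold change with 17-DMAG (horizontal axis) of 9 genes in 4T1, 4T1R1 and 4T1R2, with 95% intervals; filled points have an adjusted p under 0.05. In 4T1 Uhrf1 lies at -0.53 and Dnmt3a and Setdb1 at -0.33, each apart from the intervals of the selected populations, while the Dnmt1 and Tet2 intervals cross 0 in all 3; Tet1 is left out.

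Over the 10 genes, the response differed from that in 4T1 for 4 genes in 4T1R1 (Uhrf1, Dnmt3a, Setdb1 and Atrx), where 18.2% of all genes were called, 9.16% positive and 9.08% negative, and for 5 genes in 4T1R2 (Uhrf1, Dnmt3a, Setdb1, Trim28 and Tet1), where these shares were 17.8%, 9.62% and 8.16%. All 9 differences were positive (at an unadjusted p under 0.05, 0 and 1 genes had a negative one), and apart from Tet1 each belongs to a gene that fell in 4T1. The 2 differences share the 4T1 libraries, so they are not separate evidence. Without Tet1 the counts were 4 of 9 in each. The Tet1 value rests on untreated 4T1R2 at 0 counts and on 2, 10 and 2 counts with treatment, was lost without replicate 3 of treated 4T1 or replicate 2 of treated 4T1R2 (adjusted p of up to 0.104), and was given no adjusted p by DESeq2.

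**Figure D4:**
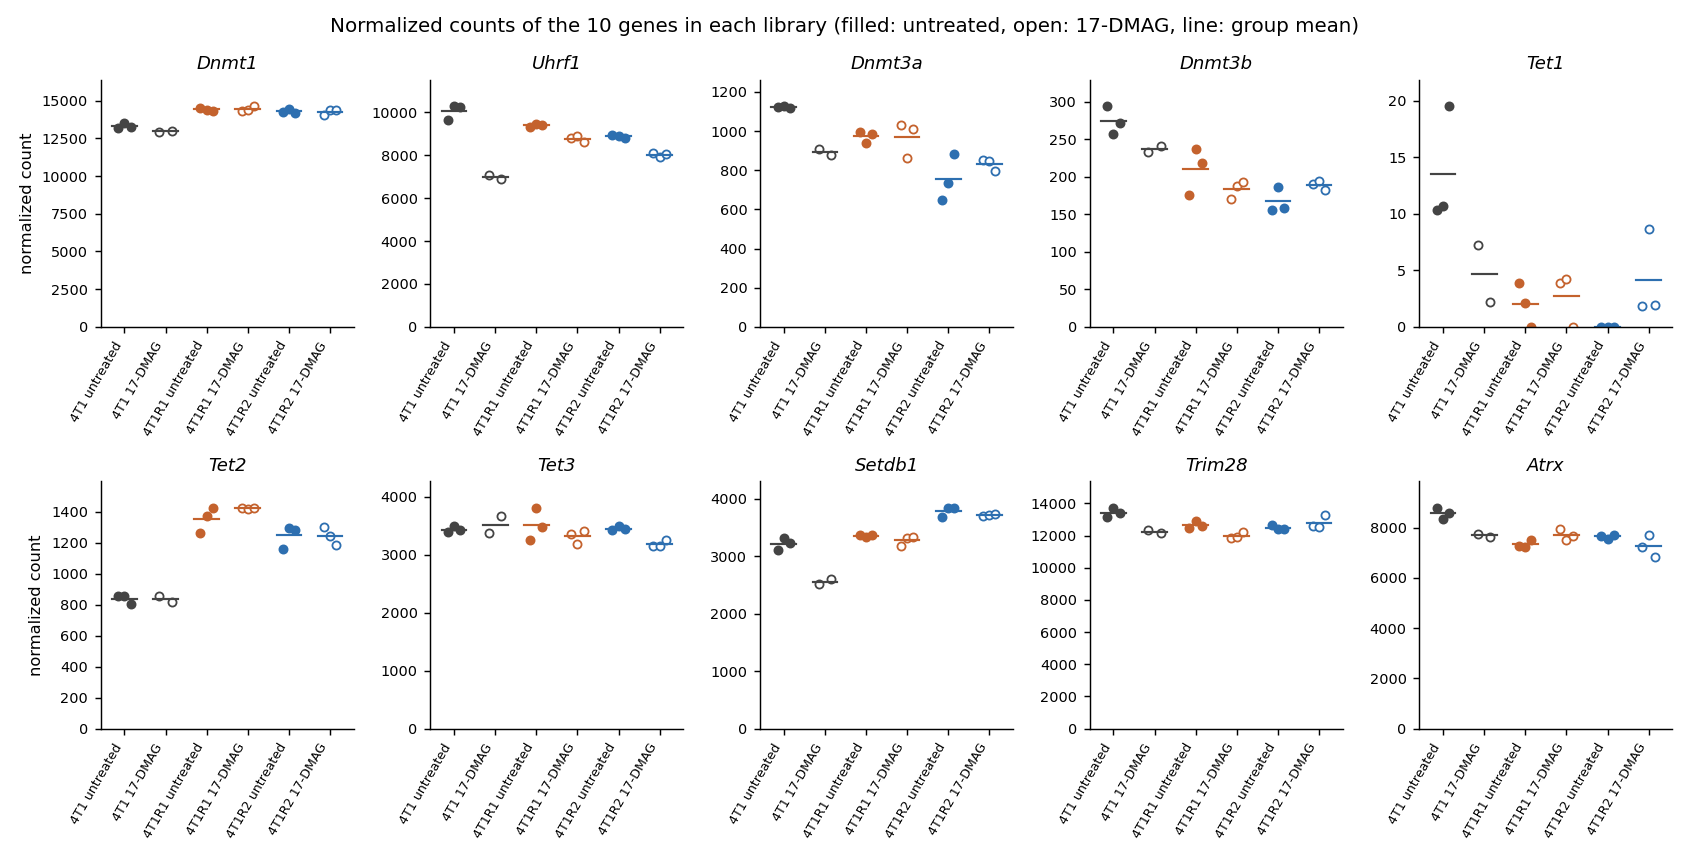
Normalized counts (vertical axes from 0, a scale for each gene) of the 10 genes in the 17 libraries, by group, with the group mean as a line; filled points are untreated and open points treated with 17-DMAG. The 3 Tet2 libraries of each selected group lie between 1162 and 1425, above the 802 to 859 of 4T1, and the treated 4T1 libraries of Uhrf1 (6882 and 7072) lie below all others.

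Genes whose group means followed a member most closely were named from the 10330 genes with at least 100 mean normalized counts, by the root mean square distance over the 5 log2 differences from untreated 4T1. The closest to Uhrf1 were Arhgap22 (0.044), Map3k4 (0.057) and Trp53bp2 (0.057). Spred3 (0.052), Plekhh1 (0.065) and Stmn1 (0.073) were closest to Dnmt3a, and Dcun1d2 (0.059), Lipt1 (0.064) and Spc25 (0.072) to Dnmt3b. For Tet2 they were Abcg2 (0.069), Zfp429 (0.073) and Dpy19l1 (0.075). Tet1 had no close neighbour, with Dhh at 0.95. These distances are descriptions over 6 group means, and with that many candidate genes close matches arise for many patterns.

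Related genes were described from lists of the same pathways, and their counts in the untreated comparisons stand beside shares of all genes of 25.2% higher and 27.5% lower in 4T1R1 and 25.6% higher and 26.9% lower in 4T1R2. Of the partners of demethylation, 12 of 15 listed were tested, and the GADD45 genes, stress-induced proteins that take part in growth arrest and DNA repair, moved most. Gadd45a was at 100, 83.3 and 99.5 normalized counts in untreated 4T1, at 327, 318 and 357 in untreated 4T1R1 and at 265, 258 and 226 in untreated 4T1R2. With 17-DMAG it stood at 239 and 275 in 4T1, at 323 to 339 in 4T1R1 and at 236 to 288 in 4T1R2. Gadd45a was thus higher in untreated 4T1R1 (log2 fold change 1.82, SE 0.12, adjusted p = 1.4e-16) and 4T1R2 (1.40, SE 0.12, adjusted p = 1.22e-12) and rose with 17-DMAG in 4T1 (1.44, SE 0.13, adjusted p = 8.15e-12), and its response differed from that of 4T1 by -1.46 in 4T1R1 and -1.40 in 4T1R2 (adjusted p = 1.1e-08 and 3.41e-08). An antisense gene, E230016M11Rik, shares 337 of its exon bases. Gadd45b rose with 17-DMAG in 4T1 by 1.23 (SE 0.10, adjusted p = 2.37e-13). It also rose in 4T1R1 (0.62, SE 0.089, adjusted p = 8.16e-07) and in 4T1R2 (0.36, SE 0.094, adjusted p = 0.00878). Gadd45g was higher in untreated 4T1R1 by 1.55 (SE 0.12, adjusted p = 1.07e-14) and in untreated 4T1R2 by 0.89 (SE 0.12, adjusted p = 8.12e-08). With 17-DMAG, Gadd45g rose in 4T1 (0.96, SE 0.13, adjusted p = 1.47e-07). Across the list, 4 genes were higher and 5 lower in untreated 4T1R1 and 6 higher and 2 lower in untreated 4T1R2 (medians 0.19 and 0.24 on the log2 scale).

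**Figure D5:**
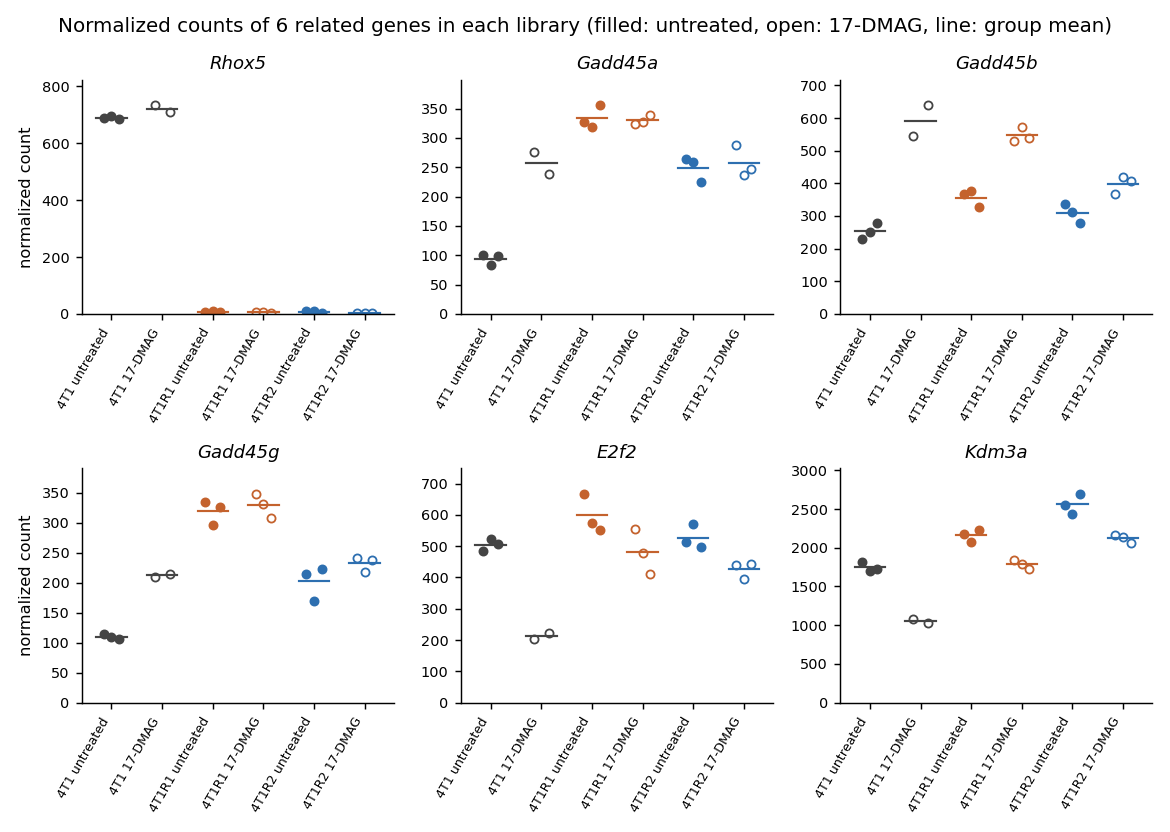
Normalized counts (vertical axes from 0) of 6 related genes in the 17 libraries, by group, with the group mean as a line; filled points are untreated and open points treated. Rhox5 stands at 685 to 736 in 4T1 and at no more than 10.4 in every selected library, and Gadd45a at 83.3 to 100 in untreated 4T1 and at 226 to 357 in all other libraries.

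Germline genes held silent by promoter methylation in somatic cells give a view of genes that depend on DNA methylation, although methylation was not measured. Of 24 listed, 7 were tested, since the rest were at or near 0. Rhox5, an X-linked homeobox gene of the germline and placenta (chrX:37804842-37808876), was at 689, 698 and 685 normalized counts in untreated 4T1. It was at 7.79, 8.34 and 5.57 in untreated 4T1R1 and at 9.59, 10.4 and 2.34 in untreated 4T1R2, lower by -6.56 (SE 0.18, adjusted p = 3.66e-29) and -6.50 (SE 0.19, adjusted p = 1.23e-28). With 17-DMAG it stood at 736 and 709 in 4T1 and at 1.73 to 7.67 in the selected populations. The called difference of -1.64 in response between 4T1R2 and 4T1 (adjusted p = 0.0335) rests on counts of 2 to 10 in 4T1R2 and was lost in 5 fits that left out a library. Mov10l1, an RNA helicase of the piRNA pathway, was at 31.1, 27.8 and 37.1 in untreated 4T1, lower in 4T1R1 (10.7, 0 and 2.79; -2.78, adjusted p = 7.53e-05) and 4T1R2 (9.59, 15.6 and 8.19; -1.54, adjusted p = 0.0101). Piwil4, a PIWI protein, was at 10.4, 15 and 18.5 in 4T1 and at 28.8, 39.1 and 38.6 in 4T1R2, higher by 1.26 (adjusted p = 0.00858), and by 2.21 than in 4T1R1 (adjusted p = 0.000105). Rhox5 and Mov10l1 passed the filter on low counts through 4T1, where they are high, so the number of lower genes in this list is no support for a direction.

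In the list of H3K9 methylation and HP1 genes, 19 of 21 symbols were in the table. In 4T1R1, 6 were higher and 8 lower, and in 4T1R2, 4 and 5. The largest changes were those of Kdm3a, an H3K9 demethylase, and Suv39h1, an H3K9 methyltransferase of constitutive heterochromatin. Kdm3a fell with 17-DMAG in 4T1 (1821, 1703 and 1719 to 1076 and 1026 normalized counts, -0.74, SE 0.055, adjusted p = 1.44e-14). It also fell in 4T1R1 (-0.27, SE 0.046, adjusted p = 1.23e-05) and 4T1R2 (-0.27, SE 0.044, adjusted p = 2.89e-05). Untreated, Kdm3a was higher in 4T1R1 (0.31, adjusted p = 3.06e-07) and 4T1R2 (0.55, adjusted p = 1.29e-13) than in 4T1. Suv39h1 was lower in untreated 4T1R1 (-0.59, SE 0.049, adjusted p = 2.42e-13) and had a mean of 1981 in 4T1R2 against 2097 in 4T1 (adjusted p = 0.157). Among KRAB zinc finger genes and TRIM28 partners, 17 of 18 were tested, and 2 were higher and 9 lower in 4T1R1 and 5 and 5 in 4T1R2. Zfp57, which guides TRIM28 to imprinted loci, was lower in 4T1R2 (-0.86, SE 0.10, adjusted p = 2.27e-09) and in 4T1R1 (-0.60, SE 0.098, adjusted p = 1.67e-06). Zfp932, which guides TRIM28 to endogenous retroviruses, was lower in 4T1R1 (-0.66, SE 0.096, adjusted p = 1.86e-07) and in 4T1R2 (-0.52, SE 0.097, adjusted p = 1.56e-05). Between 4T1R2 and 4T1R1 neither difference was called (adjusted p = 0.0523 and 0.289).

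Of the HUSH complex and other repressors of retroelements, all 16 genes in the table were tested, and in 4T1R2 10 were higher and 2 lower, against 25.6% and 26.9% of all genes. Leaving out a library gave 7 to 10 higher. In 4T1R1 the counts were 7 and 5. Trex1, a DNA exonuclease of the cytosol, was at 169, 182 and 193 normalized counts in untreated 4T1 and at 267, 375 and 305 in 4T1R1 (0.80, SE 0.14, adjusted p = 8.43e-06). It was also higher in 4T1R2 (0.68, SE 0.15, adjusted p = 0.000132). Adar, an RNA-editing enzyme induced by interferon, was higher in 4T1R2 (0.60, SE 0.044, adjusted p = 3.54e-15) and in 4T1R1 (0.37, SE 0.044, adjusted p = 1.92e-09). Adar also rose with 17-DMAG in 4T1 (0.37, SE 0.048, adjusted p = 3.68e-08). The partners and readers of DNA methylation split, with 7 higher and 8 lower of 18 tested in 4T1R1 and 5 and 5 in 4T1R2. Zbtb4, which binds methylated CpG, was lower in 4T1R2 than in 4T1R1 (-0.58, SE 0.064, adjusted p = 1.14e-09), and Mbd4, a glycosylase at methylated CpG, fell with 17-DMAG in 4T1 (-0.54, SE 0.14, adjusted p = 0.00208). Of the 11 genes of H3.3 deposition, 3 were higher and 4 lower in 4T1R1 and 4 and 2 in 4T1R2. Ubn2, a subunit of the HIRA complex, was higher in 4T1R1 (0.51, SE 0.043, adjusted p = 2.42e-13) and in 4T1R2 (0.26, SE 0.044, adjusted p = 4.34e-06). The histone chaperone Asf1b was lower in 4T1R2 (-0.51, SE 0.045, adjusted p = 7.69e-13) and in 4T1R1 (-0.39, SE 0.044, adjusted p = 5.57e-10).

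The responses of these lists to 17-DMAG depended on the scaling in 4T1. Of all genes, 18.4% rose and 17.9% fell in 4T1, 13.9% and 14.3% in 4T1R1 and 6.18% and 4.35% in 4T1R2. Of the partners and readers of DNA methylation, 4 rose and 6 fell in 4T1, 5 and 2 in 4T1R1, and 2 and 0 in 4T1R2. The H3K9 and HP1 genes gave 2 higher and 3 lower in 4T1, 6 and 2 in 4T1R1 and 1 and 3 in 4T1R2. Among the KRAB zinc finger genes and TRIM28 partners, 3 rose and 6 fell in 4T1, 3 and 1 in 4T1R1 and 1 and 0 in 4T1R2. The HUSH and retroelement repressors gave 4 and 5, 6 and 3, and 4 and 1, and the H3.3 genes 2 and 3, 1 and 2, and 0 and 0. For the demethylation partners the counts were 3 and 2, 1 and 3, and 1 and 2. Scaled by totals alone, the counts in 4T1 were 1 higher and 10 lower for the methylation partners, 1 and 12 for the H3K9 genes, 0 and 11 for the KRAB and TRIM28 genes, 2 and 6 for the HUSH genes, 0 and 7 for the H3.3 genes and 3 and 4 for the demethylation partners. The median log2 fold change in 4T1 was -0.04 for the methylation partners, -0.08 for the H3K9 genes, -0.10 for the KRAB and TRIM28 genes, -0.04 for the HUSH genes, -0.09 for the H3.3 genes and 0.01 for the demethylation partners, while that of the G1/S genes was -0.33.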

How the data were processed

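RNA was extracted from untreated and 17-DMAG-treated 4T1, 4T1R1 and 4T1R2 cells, and rRNA-depleted, stranded libraries were sequenced. Per the study's methods and the submitters' processing notes, the authors used bcl2fastq 2.20, aligned reads with STAR to mm10 (GRCm38) and counted reads per gene with featureCounts (Subread 1.6.2). The deposited values are raw counts. The use of strand and of multimapping reads in counting is not given in the sources used here, nor is the STAR version.

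Genes were tested in R 4.3.3 with edgeR 4.0.16 (TMM scaling, filterByExpr with a minimum count of 10, group means, quasi-likelihood test), all 6 groups in 1 fit of 17 libraries, with Benjamini-Hochberg adjustment over 13507 genes and a threshold of 0.05. The common biological coefficient of variation was 0.0376. The standard error is the absolute log2 fold change divided by the square root of F, and intervals are 95%. A difference of responses is an interaction contrast of the same fit. The 10 genes and the lists of related genes were chosen with earlier results of these data known. From a list, genes were named when called with an absolute log2 fold change of at least 1 or, in a list without one, the 2 largest called changes. Members with a log2 difference of at least 0.5 from untreated 4T1 in some group were given the 3 genes nearest in pattern. Replicate numbers did not pair the libraries: in 45 pairs of same-numbered libraries the correlation of deviations ran from -0.0516 to 0.0496. GENCODE vM21 (GRCm38) matched 23376 of 24421 symbols, all 10 genes among them, and gave exon lengths and positions. Promoters came from RefSeq on GRCm38.p6. DESeq2 1.42.0, which the authors used, was an alternative, with other scalings, filters and subsets of libraries. The tests were checked on simulated data. Figures were drawn with matplotlib 3.10.9.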

Additional observations from a re-analysis of the deposited data

Results flagged for a closer look

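Results appear here where the response to 17-DMAG in a selected population differed from that in 4T1 by the interaction test (adjusted p under 0.05 in edgeR's quasi-likelihood test). In 4T1R1 minus 4T1 the differences were 0.43 for Uhrf1, 0.32 for Dnmt3a, 0.30 for Setdb1 and 0.23 for Atrx on the log2 scale. In 4T1R2 minus 4T1 they were 0.38 for Uhrf1, 0.48 for Dnmt3a, 0.30 for Setdb1 and 0.17 for Trim28. The value for Tet1, 6.55, is a fitted number from a group at 0 counts, and gives no size of effect. The treated 4T1 group has n = 2 and enters every one of these differences, and its libraries also held the lowest summed level of the 30 G1/S genes (101658 to 103887 normalized counts, against 111967 to 130743 in the other 15 libraries), whose part in them was not tested.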

How the results depend on the processing

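Of 38 calls over the 10 genes and 8 comparisons, 30 held under every alternative that gave them a test. The other 8 were lost under at least 1, and 0 of the 38 changed direction. Among the 30, the untreated Tet1 calls had fewer alternatives, 14 in 4T1R1 and 13 in 4T1R2, against 15 for Tet2 in each. With only the groups compared in the fit, 1 gene was called for 17-DMAG in 4T1R1 and 2 in 4T1R2, and with scaling by total counts alone these were 1 (Atrx, higher) and 3. Leaving out a library gave 1 to 3 genes in 4T1R1, 1 to 2 in 4T1R2 and 2 to 5 for 4T1R2 against 4T1R1. The replicate number as a block, over 18 separate libraries, left all 80 values of the 10 genes on their side of the threshold, as did 18 separate libraries without the block, and 6 of 18 libraries were closest to their own number.

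Scaling by total counts alone moved the median of all genes to -0.11 for 17-DMAG in 4T1 and to 0.15 and 0.068 for the differences of response in 4T1R1 and 4T1R2. Genes higher and lower went from 2490 and 2423 to 1193 and 4322 in 4T1, from 1874 and 1938 to 2356 and 1316 in 4T1R1, from 835 and 588 to 365 and 1146 in 4T1R2, and from 1237 and 1227 to 3536 and 419 and from 1299 and 1102 to 2091 and 632 for the differences. Under it 6 uncalled values changed sign: in 4T1 Tet2 (-0.11) and Tet3 (-0.081), in 4T1R1 Dnmt3a (0.027), in 4T1R2 Trim28 (-0.010), and the differences of Tet3 in 4T1R1 (0.035) and of Tet2 in 4T1R2 (0.065).

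The other sign changes were of uncalled values near 0. For Tet2 in 4T1 they were -0.00045 with DESeq2, -0.00071 with RLE scaling and -0.0045 with at least 10 counts in every library; for the Tet2 difference in 4T1R2, 0.0014 with that filter and 0.0011 with only the groups compared; for Tet2 in 4T1R2, 0.0042 without a filter and 0.0025 without Rn45s; for Dnmt1, -0.00099 in 4T1R1 and 0.0019 in 4T1R2 without a filter and 0.00029 in 4T1R2 without Rn45s. Leaving out a library, the ranges that crossed 0 were -0.059 to 0.069 (Dnmt3a) and -0.0090 to 0.0084 (Dnmt1) and -0.13 to 1.37 (Tet1) in 4T1R1, -0.039 to 0.034 (Tet2) and -0.026 to 0.097 (Tet3) in 4T1, -0.052 to 0.032 (Tet2) and -0.010 to 0.0088 (Dnmt1) in 4T1R2, -0.098 to 0.10 (Dnmt3b difference, 4T1R1), -0.056 to 0.038 (Tet2 difference, 4T1R2), and for untreated Tet3 -0.029 to 0.084 (4T1R1 against 4T1), -0.0031 to 0.019 (4T1R2 against 4T1) and -0.077 to 0.037 (4T1R2 against 4T1R1). The cause was not tested. Of 25 values of related genes, 1 was lost under some alternative.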
